A study of Mus musculus with 56 samples.

Results

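The nuclear genes of oxidative phosphorylation were followed in ribosome-bound RNA of mouse motor neurons and in RNA of all cells of the spinal cord. Members were taken by symbol: the Nduf a, b, c, s and v series for complex I, Sdha to Sdhd for complex II, the Uqcr genes for complex III, the Cox4 to Cox8 series for complex IV and the Atp5 genes for ATP synthase, with symbols ending in -ps left out. The rule, which used no measured value, found 88 of the 43629 genes in the count tables, and 85 of these had enough counts to be tested. They fell into 40 genes of complex I (38 tested), 4 of complex II, 8 of complex III, 19 of complex IV (18 tested) and 17 of ATP synthase, or complex V. The 3 untested genes were Ndufs6b, Ndufb4c and Cox8c. Of the 88 genes, 4 (Ndufa11b, Ndufb4c, Ndufs6b and Cox6c2) are annotated as processed pseudogenes.

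The study set out to find which messages change in motor neurons of a mouse model of amyotrophic lateral sclerosis before and after symptoms appear. Translating ribosome affinity purification (TRAP) pulls down tagged ribosomes of 1 cell class with the messages bound to them. There were 56 libraries in 12 groups of 3 to 6, of 3 genotypes, 2 ages (9 and 14 weeks) and 2 fractions, with 25 TRAP libraries and 31 of all spinal cord cells (below, cord). The labels give the tissue as cervical while the study speaks of whole spinal cord, a difference left as it stands. The study kept part of each lysate as input, so a TRAP and a cord library can come from 1 mouse, but the labels do not say which do. Every mouse, controls included, carried the Chat bacTRAP transgene of line DW167, which places an EGFP-tagged ribosomal protein L10a under the Chat promoter, active in cholinergic neurons. The ChatBT group carried this transgene alone. The hTDP43WT group also carried human wild-type TDP-43 (line 3cPtrc/J), and the A315T group, labelled as diseased, carried human TDP-43 with the A315T change found in patients (line 95Balo/J). Both human transgenes are driven by the prion promoter, which is active well beyond motor neurons, so neither is a motor neuron model alone. The study describes all mice as female. Cholinergic neurons other than motor neurons share the tag, and the cord libraries hold the motor neurons too. TRAP against cord compares both a cell class with a tissue and ribosome-bound with whole RNA, and these cannot be told apart. Nor can fewer cells of a type be told apart from less RNA per cell in bulk samples of this kind.

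Oxidative phosphorylation moves electrons from NADH through complex I, or from succinate through complex II, to complexes III and IV, where oxygen is reduced. Complexes I, III and IV pump protons across the inner mitochondrial membrane, and complex V uses the gradient to make ATP. Most subunits are encoded in the nucleus, made on cytosolic ribosomes and imported, so their messages can be caught on a tagged cytosolic ribosome, whereas the few subunits of the mitochondrial genome are made on ribosomes inside the organelle, which carry no tag. Motor neurons, with their long axons, depend heavily on this pathway.

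Promoters of 7 members are shown: 5 that rose in TRAP, with 1 for each complex, Sdha, which did not pass the test, and Cox6b2, which fell. The 5 were the most enriched of each complex among members whose window held letters of a regulator named below. Their matches were thus part of the choice, and Sdha and Cox6b2 were added by name. RefSeq windows (GRCm38.p6) of 300 bases, from 250 before to 50 after a start, were found for 66 of the 88 members (71 windows, since some genes have several starts). They were searched on both strands for NRF1 (GCGCANGCG), the core of ETS factors such as GABP (CCGGAAG), YY1 (AAGATGGC) and ERR (TCAAGGTCA), which are textbook regulators of respiratory genes. Below, the 250 bases before the start and 30 after it are printed 5′ to 3′ on the gene's strand, and capitals mark these letters or their complement.
Ndufc1 (complex I, chr3:51408926-51409205, minus strand): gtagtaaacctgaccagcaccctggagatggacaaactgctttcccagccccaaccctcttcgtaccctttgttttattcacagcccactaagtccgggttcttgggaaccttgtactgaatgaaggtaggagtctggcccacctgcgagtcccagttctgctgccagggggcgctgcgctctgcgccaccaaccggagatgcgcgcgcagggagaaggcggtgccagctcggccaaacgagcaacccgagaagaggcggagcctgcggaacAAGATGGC
Sdhd (complex II, chr9:50603820-50604099, minus strand): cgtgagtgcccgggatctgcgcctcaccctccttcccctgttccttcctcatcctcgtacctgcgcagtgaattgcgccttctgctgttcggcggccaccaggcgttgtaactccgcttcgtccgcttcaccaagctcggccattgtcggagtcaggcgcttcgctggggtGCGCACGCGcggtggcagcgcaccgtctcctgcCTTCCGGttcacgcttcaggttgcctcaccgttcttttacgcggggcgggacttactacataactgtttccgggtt
Uqcr11 (complex III, chr10:80406792-80407071, minus strand): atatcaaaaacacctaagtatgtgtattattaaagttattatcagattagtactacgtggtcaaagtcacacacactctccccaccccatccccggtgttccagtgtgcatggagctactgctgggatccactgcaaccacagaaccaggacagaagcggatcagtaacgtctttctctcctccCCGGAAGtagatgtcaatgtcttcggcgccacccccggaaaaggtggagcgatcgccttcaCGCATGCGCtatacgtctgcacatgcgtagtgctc
Cox6b1 (complex IV, chr7:30626085-30626364, minus strand): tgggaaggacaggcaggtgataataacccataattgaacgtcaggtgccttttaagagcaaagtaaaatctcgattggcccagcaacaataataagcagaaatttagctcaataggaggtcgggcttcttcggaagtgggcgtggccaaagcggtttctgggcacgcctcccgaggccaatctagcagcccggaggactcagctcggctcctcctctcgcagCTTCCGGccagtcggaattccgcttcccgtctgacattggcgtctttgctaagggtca
Atp5k (complex V, chr5:108434370-108434649, minus strand): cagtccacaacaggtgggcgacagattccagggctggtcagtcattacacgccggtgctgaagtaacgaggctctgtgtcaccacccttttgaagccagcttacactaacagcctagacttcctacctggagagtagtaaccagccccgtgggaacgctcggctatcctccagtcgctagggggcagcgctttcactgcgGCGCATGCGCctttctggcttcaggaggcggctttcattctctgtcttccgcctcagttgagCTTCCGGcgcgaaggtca
Sdha (complex II, chr13:74350211-74350490, minus strand): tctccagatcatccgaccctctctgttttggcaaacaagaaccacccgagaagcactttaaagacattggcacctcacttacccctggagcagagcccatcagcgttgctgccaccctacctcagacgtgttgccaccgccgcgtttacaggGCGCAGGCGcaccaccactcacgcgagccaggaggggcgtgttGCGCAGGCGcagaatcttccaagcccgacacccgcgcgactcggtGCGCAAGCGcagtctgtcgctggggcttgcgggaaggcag
Cox6b2 (complex IV, chr7:4753065-4753344, minus strand): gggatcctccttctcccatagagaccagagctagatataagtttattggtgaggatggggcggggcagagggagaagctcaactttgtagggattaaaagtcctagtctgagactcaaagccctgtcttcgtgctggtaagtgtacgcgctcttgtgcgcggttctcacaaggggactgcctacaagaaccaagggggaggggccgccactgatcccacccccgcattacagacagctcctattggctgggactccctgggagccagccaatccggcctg

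The Sdhd, Uqcr11 and Atp5k windows each hold an NRF1 and an ETS match, and in Atp5k the NRF1 letters read on both strands overlap. In Sdhd a further ERR match begins 37 bases after the start, past the printed stretch. Ndufc1 has YY1 letters 23 bases after the start and Cox6b1 an ETS match 28 bases before it. Sdha has the NRF1 letters 3 times (98, 55 and 10 bases before the start) although its TRAP level was not above that of cord, and Cox6b2 has none of the 4. Of the 66 members with a window, 37 held at least 1 of the 4. Ndufa1, Cox7a2 and Cox7b, each more enriched than the member shown for its complex, also held none. Among all 71 member windows, NRF1 letters were in 29.6%, against 6.25% of the 32851 windows of all genes. The ETS core was in 22.5% against 8.86%, YY1 in 12.7% against 2.75% and ERR in 2.8% against 0.42%. Member windows were also richer in G and C (median 57.3% against 52.7%) and in CpG (median 19 against 7). The part of base composition in these shares was not tested. A match is a description and not a site of binding.

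Several TRAP libraries stood apart or went against their labels. Total counts ran from 0.472 to 256 mega-counts (M) in TRAP and from 17.5 to 86.7 M in cord, and 4 TRAP libraries had under 5 M. Lamr1-ps1, a pseudogene read in all 18 A315T libraries at 0.5355 to 3.128 CPM (counts per mega-count of the scaled library), was also read at 1.272 to 1.962 CPM in 3 TRAP libraries labelled as controls (hTDP43WT replicate 5 at 14 weeks and replicate 3 at 9 weeks, ChatBT replicate 4 at 9 weeks), but at no more than 0.0374 CPM in the other 35 control libraries. The library labelled hTDP43WT replicate 5 at 14 weeks differed little from A315T replicate 3 of the same age (chi-square of 1.317 per gene), as did ChatBT replicate 4 at 9 weeks from A315T replicate 5 (1.889). The next closest of 675 pairs stood at 8.554. ChatBT replicate 4 at 14 weeks held the Y-linked Ddx3y at 51.55 CPM. In 2 TRAP libraries over 5% of counts came from the mitochondrial genome. These criteria marked 9 libraries in all, 5 of ChatBT and 4 of hTDP43WT, and calls of members that depend on them are given with and without them. Leaving out all 9 leaves ChatBT replicate 3 alone in TRAP at 14 weeks and hTDP43WT replicate 2 alone at 9 weeks. Genotype comparisons of 1 age and changes with age that rest on either are then given in these Results by size alone. Where counts of such changes with age are listed among the alternative fits at the end, they are not read as calls. Counts for TRAP over cord within a genotype, which joins both ages, include these groups. Counts of its difference between genotypes without the 9 are not given. Labels were kept. All 6 motor neuron markers were higher in TRAP than in cord in every genotype (median log2 change 3.23 in ChatBT, 3.56 in A315T, 3.21 in hTDP43WT), Mnx1 by 3.41, Isl1 by 3.29 and Prph by 3.50 in ChatBT. Oligodendrocyte markers (8 of 8 lower, median −1.95, −3.15 and −1.91 in the same order) and astrocyte markers (7 of 7 lower, −1.55, −2.83 and −1.61) were depleted.

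Most nuclear subunits of oxidative phosphorylation were higher in motor neuron TRAP than in cord. Of the 85 tested, 70 rose in all 3 genotypes, 3 fell in all 3 (Ndufa4l2, Cox4i2 and Cox6b2), 3 passed in some genotypes and 9 in none. A gene passed when edgeR's adjusted p was below 0.05. The median log2 change over members, each taken as the mean of the genotypes, was 1.27, or 2.42-fold, and changes ran from −2.12 to 2.42. In ChatBT, 71 members were higher and 3 lower (median 1.21), against 23.6% and 34.1% of all genes tested. In A315T these were 73 and 3 (median 1.42), against 28.7% and 34.1%. In hTDP43WT they were 71 and 3 (median 1.21), against 24.6% and 29.7%. At a further minimum of 2-fold, 52 members were higher in ChatBT (9.25% of all genes), 58 in A315T (13.3%) and 53 in hTDP43WT (9.8%). The median change of all genes tested was −0.21, −0.10 and −0.15 in ChatBT, A315T and hTDP43WT. Without all 9 libraries above, ChatBT had 66 higher and 2 lower (median 1.14) and hTDP43WT 69 and 3 (median 1.19). Without the 3 control libraries with Lamr1-ps1 alone, these counts were 70 and 4 for ChatBT and 66 and 3 for hTDP43WT.

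Members together made up 2.73 to 4.51% of the counts of a TRAP library (median 3.57%) and 1.33 to 2.76% of a cord library (median 1.89%), so that the ranges met only at the lowest TRAP and the highest cord library. For 24 of the 85 members every 1 of the 25 TRAP libraries lay above all 31 cord libraries, as did 2.77% of all genes tested.

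**Figure D1:**
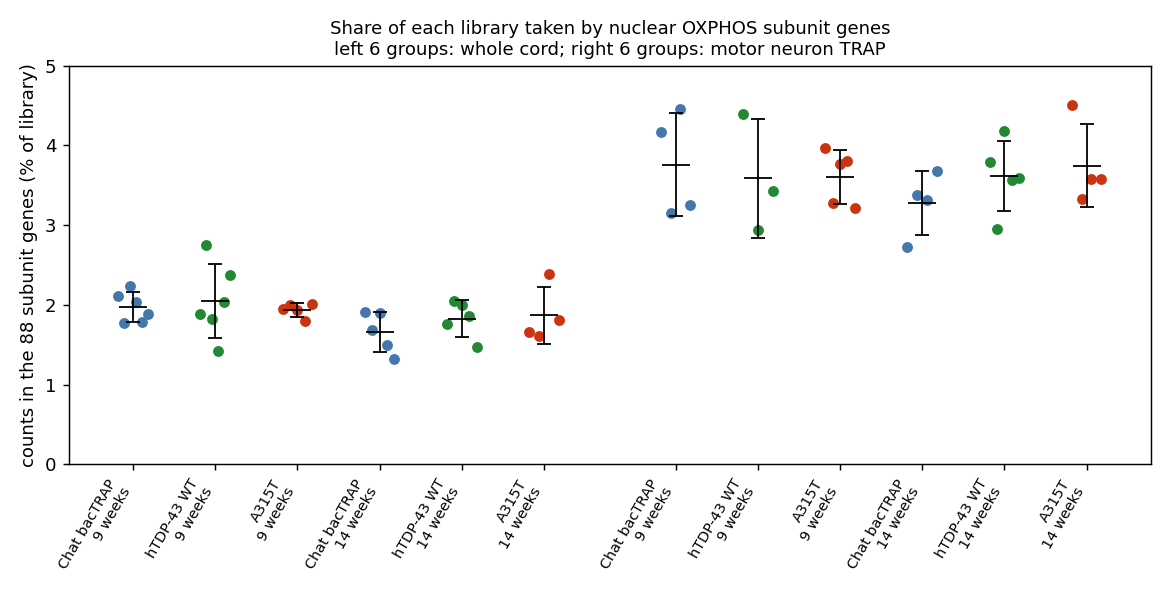
Percent of all counts taken by the 88 nuclear subunits in each of the 56 libraries, by group, with bars for the mean and SD. TRAP libraries lie between 2.73 and 4.51%, cord libraries between 1.33 and 2.76%.

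Some members share sequence with other genes, mostly pseudogene copies, which could draw or lend reads. Among 34 members with no 50-base word found in another gene, 26 were higher and 3 lower in all genotypes (median 1.15). Among 21 with over 10% of their words shared, 18 were higher and none lower (median 1.33). The TRAP median was at least 10 CPM for 76 members, of which 68 were higher in every genotype and none lower (median 1.31). This cut was made on the TRAP level itself and leaves out all 3 lower members, so the lack of lower ones follows from it. Values of Cox6c2, a pseudogene with 52.7% of its words shared, are uncertain. Its change of 3.18 ± 0.573 (SE) in ChatBT became −1.54 without the 9 libraries.

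Complex I, the entry for electrons from NADH, had 33 of 38 tested members higher in all 3 genotypes and 1 lower (median 1.36, 2.56-fold). By symbol, the higher members include Ndufa4 and the pseudogene Ndufa11b, and the lower member is Ndufa4l2. Ndufa1, a small membrane-arm subunit (ENSMUSG00000016427, chrX:37187588-37191163, minus strand), stood at 268.3 to 617.4 CPM in TRAP (median 359.8) and at 60.61 to 122.9 CPM in cord (median 86.4). The fractions did not overlap, and the log2 change was 2.04 ± 0.130 in ChatBT, 2.26 ± 0.138 in A315T and 1.98 ± 0.131 in hTDP43WT, with adjusted p at most 1.7e-18. Ndufc1, another membrane-arm subunit (chr3:51404677-51408988, minus strand), whose promoter is shown above, stood at 217.1 to 675.3 CPM in TRAP (median 323.5) and 55.36 to 164.6 in cord (median 80.76), again without overlap, for changes of 1.99 ± 0.158, 2.06 ± 0.166 and 2.12 ± 0.161 in the same order of genotypes. At the other end were subunits of the catalytic arm. Ndufv1, which binds the FMN that takes electrons from NADH, had 147.1 to 489.5 CPM in TRAP (median 236.0) and 136.0 to 454.9 in cord (median 276.0), and Ndufs1, the large iron-sulfur subunit, 83.66 to 282.1 (median 138.2) against 95.51 to 158.3 (median 129.9). The fractions overlapped for both, and neither passed in any genotype, with changes between −0.22 and 0.24. The 7 nuclear core subunits, those with counterparts in bacteria that carry out the electron transfer, had a median change of 0.28 (range −0.11 to 1.08) and 3 of them were higher in all genotypes. The other 30 coding members of complex I had a median of 1.45, with 29 higher in all genotypes. The remaining 1 was Ndufa4l2.

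Complex II, succinate dehydrogenase, which also belongs to the citrate cycle, had the smallest median (0.68, 1.61-fold) of the 5 complexes. The iron-sulfur subunit Sdhb and the membrane anchors Sdhc and Sdhd were higher in every genotype, while the flavoprotein Sdha, the catalytic subunit, was not. Sdhd (chr9:50596357-50603812, minus strand) had 199.4 to 517 CPM in TRAP (median 287.3) and 134.3 to 193.1 in cord (median 162.8). The fractions did not overlap, and the change was 0.64 ± 0.093 in ChatBT, 0.85 ± 0.096 in A315T and 0.81 ± 0.095 in hTDP43WT (adjusted p at most 9.9e-08). Sdhb changed by 0.72 to 0.82 and Sdhc by 0.52 to 0.73 over the genotypes. Sdha (chr13:74322254-74350280, minus strand) had 420.9 to 1374 CPM in TRAP (median 483.1) and 473 to 571.7 in cord (median 537.8), with changes of −0.08 ± 0.114, −0.17 ± 0.116 and 0.05 ± 0.117. The TRAP value of 1374 CPM belonged to 1 library, hTDP43WT replicate 3 at 14 weeks, and without it the hTDP43WT change was −0.16. Under alternative fits Sdha passed as lower in 3 of 27 in A315T, 1 of them DESeq2 (−0.30, adjusted p = 0.0206), and in 0 of 33 in ChatBT and 0 of 32 in hTDP43WT.

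Complex III, which passes electrons from ubiquinol to cytochrome c, had 6 of 8 members higher in all genotypes (median 1.54, 2.91-fold). Uqcr11, a small accessory subunit (chr10:80402997-80406830, minus strand), had 174.3 to 475.5 CPM in TRAP (median 240.8) and 33.28 to 137.3 in cord (median 65.68), without overlap, for a mean change of 1.96. Uqcrh, the hinge protein, had 827.7 to 1934 CPM (median 1074) against 239.8 to 679.9 (median 325.8), a mean change of 1.72. The 2 members that passed in no genotype were the core proteins Uqcrc1 and Uqcrc2, the largest nuclear subunits of the complex. Uqcrc1 stood at 210.1 to 661.1 CPM in TRAP and 176.3 to 566.7 in cord, with changes from −0.03 ± 0.175 in ChatBT to 0.08 ± 0.178 in hTDP43WT. Uqcrc2 changed by −0.23 ± 0.106, −0.12 ± 0.108 and −0.11 ± 0.109. Under alternative fits Uqcrc2 passed as lower in 9 of 33 in ChatBT and 2 of 27 in A315T, and it passed in 1 of 32 in hTDP43WT. With DESeq2 its change was −0.30 in ChatBT (adjusted p = 0.00507) and −0.24 in A315T (adjusted p = 0.0272). Uqcrfs1, the Rieske iron-sulfur protein, which carries out electron transfer, was higher by a mean of 0.77.

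Complex IV, cytochrome c oxidase, had 13 of 18 tested members higher in all genotypes, 2 lower and 3 that passed in none (median 1.27, 2.41-fold). The 13 include the pseudogene Cox6c2. Cox7a2 had 542.7 to 1516 CPM in TRAP (median 862.5) and 161 to 439.9 in cord (median 225), and Cox6c had 630.3 to 1877 (median 1078) against 179.8 to 510.7 (median 268.9). Neither overlapped between fractions, and their mean changes were 1.97 and 1.96. Ndufa4, named for complex I and since assigned to complex IV, had 929.3 to 4210 CPM (median 1664) against 305 to 698 (median 426.6), without overlap, for changes of 1.87 ± 0.161, 2.04 ± 0.170 and 2.04 ± 0.163 in ChatBT, A315T and hTDP43WT.

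Complex V had 15 of 17 members higher in all genotypes and none lower (median 1.19, 2.28-fold). Atp5k, the membrane subunit e (chr5:108433244-108434448, minus strand), had 421 to 2298 CPM in TRAP (median 905.7) and 108.1 to 412.1 in cord (median 167.7). The fractions did not overlap, and the change, the largest mean of all members, was 2.25 ± 0.198 in ChatBT, 2.76 ± 0.214 in A315T and 2.26 ± 0.201 in hTDP43WT (adjusted p at most 8.11e-14). Atp5mpl, a small proteolipid of the membrane sector, had 559.6 to 2211 CPM (median 926.4) against 125.1 to 350.1 (median 190.9), a mean change of 2.29. Atp5b, the catalytic beta subunit, was the member with the highest median TRAP count (1243 to 3356 CPM, median 2176) and also high in cord (1003 to 1855, median 1627). Its fractions overlapped and its change was 0.40 ± 0.116, 0.57 ± 0.119 and 0.40 ± 0.118, with an adjusted p of at most 0.00406. Atp5a1, the alpha subunit, changed by 0.21 ± 0.108, 0.34 ± 0.111 and 0.31 ± 0.110 and passed in A315T and hTDP43WT (adjusted p of 0.0065 and 0.0142), with 0.0883 in ChatBT. No member differed in TRAP over cord between A315T and ChatBT (0.69% of all genes did), A315T and hTDP43WT (0.648%) or hTDP43WT and ChatBT (0.403%) by edgeR, and at an unadjusted p below 0.05 there were 8, 4 and 1. Without all 9 libraries the counts for A315T against ChatBT and against hTDP43WT left 0. Each then rested in part on a group of 1 library, and they are not given.

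**Figure D2:**
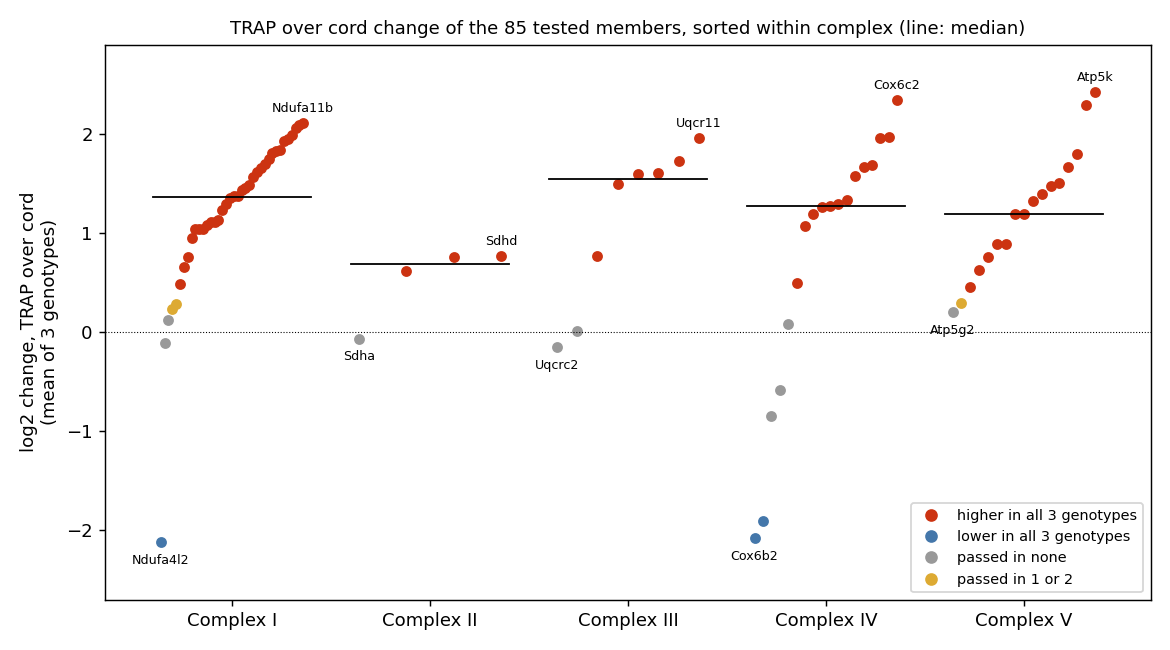
Log2 change of TRAP over cord for each tested member, as the mean of 3 genotypes, grouped by complex, with the lowest and highest member of each complex named, colours for the genotypes in which it passed and a line at the median. The median is lowest in complex II (0.68) and highest in complex III (1.54), and Ndufa4l2, Cox4i2 and Cox6b2 lie near −2.

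Members with short coding sequences were the more enriched. Over 83 members with a coding length, Spearman's rho between length and TRAP over cord was −0.58, and over the 75 with a mean above 10 CPM it was −0.79, given as descriptions since genes of 1 set of libraries are not independent. Over 15942 coding genes tested, rho was −0.27. The 23 members with under 300 coding bases had a median change of 1.67, the 39 with at least 300 and under 600 bases 1.32, the 12 with at least 600 and under 1200 bases 0.76 and the 9 with at least 1200 bases 0.12. In the same bins all coding genes had medians of 0.78, 0.48, 0.08 and −0.33. Of members in the longest bin 22.2% were higher in all genotypes, against 12.7% of all genes, and in the shortest 82.6% against 53.2%. Ndufv3, with 1404 coding bases in its longest coding transcript, was higher by a mean of 1.35 and stood apart from the other long members, and is named after its value was seen. Lengths were those of the longest coding transcript of each gene, and counts per gene do not show which transcript was read. What part length, as such or through capture on ribosomes, played in the difference between complexes was not tested.

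**Figure D3:**
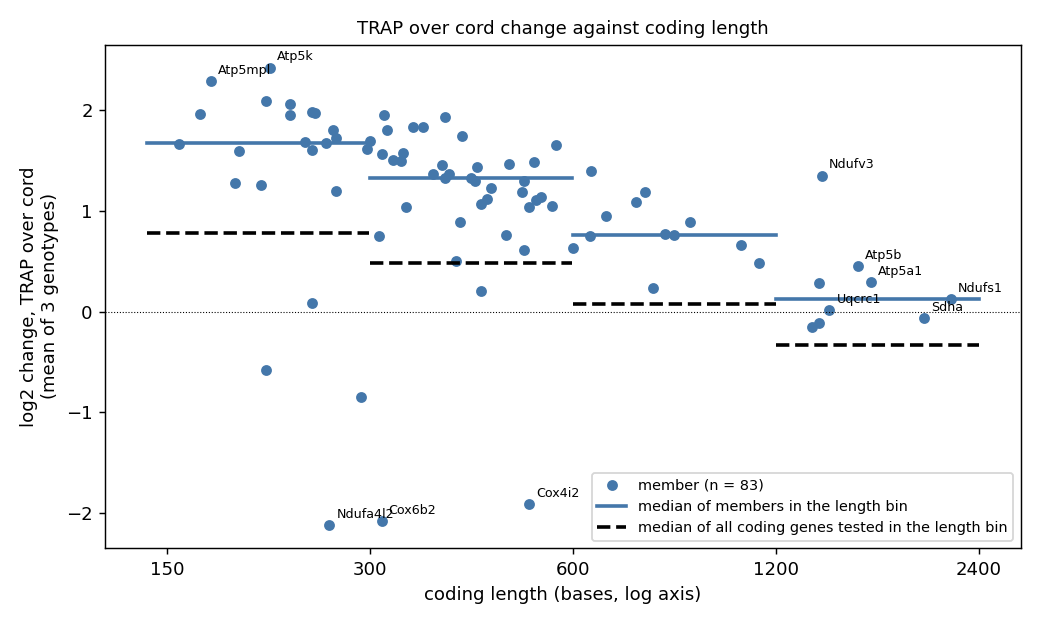
Log2 change of TRAP over cord (mean of 3 genotypes) against coding length in bases on a log axis, with 1 point for each of 83 members and lines for the medians of members (solid) and of all coding genes tested (dashed) in each bin. Members as a median lie above the median of all genes in each bin of length (1.67 against 0.78 below 300 bases, 0.12 against −0.33 from 1200 bases).

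Per kilobase of exon, the most abundant members in TRAP were Cox6b1 (mean 1737 CPM per kb, 549.8 in cord), Cox8a (1716, 719.1 in cord), Atp5k (1591, 301.0 in cord), Cox6a1 (1465, 494.3 in cord) and Ndufa4 (1275, 320.6 in cord). Exon length here joins all annotated exons of a gene and is not the length of the message read. It was 708 bases for Cox6b1 and 3567 for Cox6c, so the order depends on the annotation too. Paralogous pairs of complex IV and of Ndufa4 divided by fraction. Cox6b1, which faces the intermembrane space, had 779.8 to 2186 CPM in TRAP (median 1205) and 254.8 to 773.1 in cord (median 384.5), without overlap, and rose by 1.63 ± 0.152, 1.91 ± 0.161 and 1.47 ± 0.154. Its paralogue Cox6b2, known from testis, had 0 to 6.164 CPM in TRAP (median 0.7727) and 1.696 to 6.928 in cord (median 3.699), and fell by 1.33 ± 0.410, 2.46 ± 0.411 and 2.45 ± 0.477 on the log2 scale. Cox4i1, the general form of subunit IV, had 1328 to 2892 CPM in TRAP (median 1778) and 461.1 to 1282 in cord (median 721.6), without overlap, a mean change of 1.29. Cox4i2, its lung and low-oxygen form, had 0 to 2.129 CPM (median 0.432) against 0.7536 to 3.973 (median 1.99), with a mean change of −1.91. Ndufa4l2, the paralogue of Ndufa4 induced in low oxygen, had 0 to 1.921 CPM (median 0.3267) against 0.8478 to 5.756 (median 2.227), with a mean change of −2.12. All 3 were at a few CPM at most, and their fractions overlapped in CPM.

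As a share of their partner per kilobase, these paralogues did not overlap between fractions. They are the members that fell in every genotype, and their partners rose in TRAP without overlap, which by itself lowers the shares. Cox6b2 was 0 to 0.38% of Cox6b1 in TRAP (median 0.0462%) and 0.413 to 0.799% in cord (median 0.654%). Cox4i2 was 0 to 0.279% of Cox4i1 (median 0.0486%) against 0.321 to 0.77% (median 0.547%), and Ndufa4l2 0 to 0.24% of Ndufa4 (median 0.0225%) against 0.256 to 1.9% (median 0.665%). Markers of endothelial cells and pericytes were also lower in TRAP, 4 of 6 in ChatBT, 5 in A315T and 2 in hTDP43WT, and their part in the levels of Cox4i2 and Ndufa4l2 was not tested.

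The forms of heart and skeletal muscle, Cox6a2, Cox7a1 and Cox8b, did not follow that division. Cox8b was 0 to 5.48% of Cox8a in TRAP (median 0.149%) and 0.159 to 4.96% in cord (median 0.824%), and Cox6a2 0 to 3.75% of Cox6a1 (median 0.0507%) against 0.0138 to 7.94% (median 0.647%). Both overlapped and passed in no genotype, with changes of −0.24 ± 0.627, −0.94 ± 0.674 and −0.58 ± 0.750 for Cox8b and −0.61 ± 0.937, −2.28 ± 1.09 and 0.34 ± 0.974 for Cox6a2. Cox7a1 rose by a mean of 1.19, from a median of 5.629 CPM in cord to 13.48 in TRAP, but less than Cox7a2, so that its share of Cox7a2 was 1.06 to 8.33% in TRAP (median 2.72%) and 2.92 to 11% in cord (median 4.52%). Cox7a2l, which links complexes III and IV, was higher by a mean of 0.50, Cox7b by 1.68 and Cox8a by 1.26. Cox7b2 passed in no genotype (at most 1.415 CPM in any library).

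**Figure D4:**
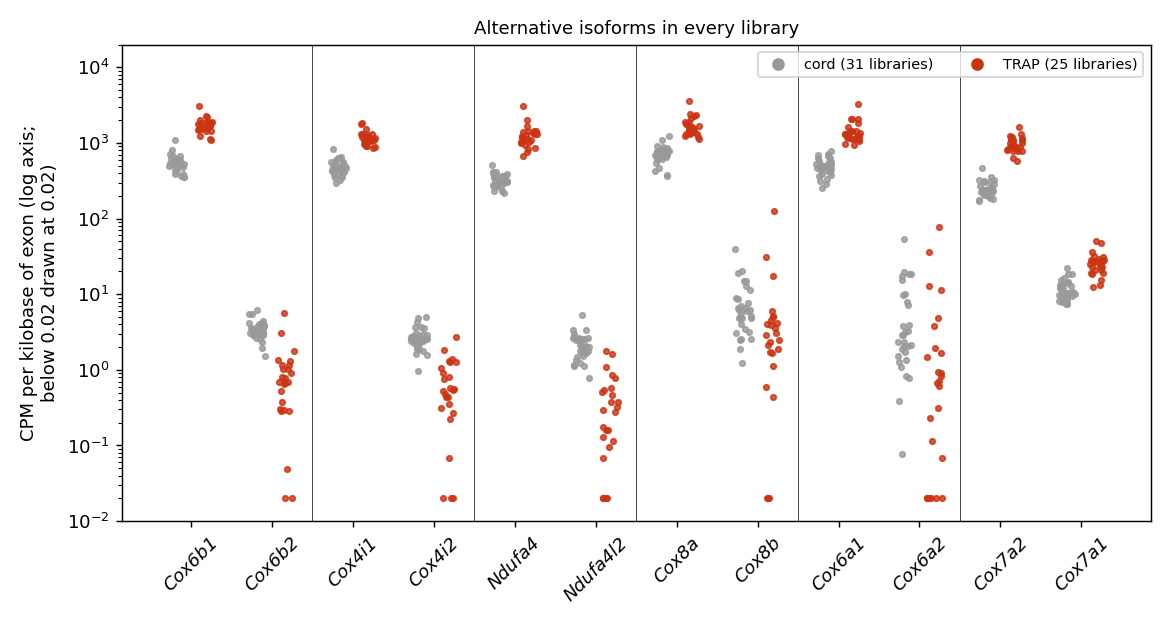
CPM per kilobase of exon (log axis, values below 0.02 drawn at 0.02) of paired isoforms in each of the 25 TRAP and 31 cord libraries, 1 point a library. Cox6b2, Cox4i2 and Ndufa4l2 stay orders of size below their partners and are lower in TRAP, while their partners are higher in TRAP, and Cox8b and Cox6a2 spread widely in both fractions.

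The subunit c genes of ATP synthase, which encode the same mature protein behind different import sequences, also differed. Atp5g3 had 958.4 to 3218 CPM in TRAP (median 1553) and 441 to 1064 in cord (median 618.3), a mean change of 1.32. Atp5g1 had 41.37 to 145.7 CPM (median 75.69) against 25.37 to 57.26 (median 41.07), a mean change of 0.89. Atp5g2 had 0 to 8.435 CPM (median 1.738) against 0.9891 to 2.681 (median 1.766) and passed in no genotype, but 38.3% of its words occur in other genes, so its counts are uncertain.

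Other genes of the pathway were taken from fixed lists. Of the 13 subunits encoded by the mitochondrial genome 8 could be tested, and none was higher in TRAP: 7 were lower in ChatBT (median −1.56), 8 in A315T (−3.59) and 6 in hTDP43WT (−1.56). In ChatBT mt-Co1 changed by −2.22, mt-Nd5 by −2.23 and mt-Nd3 by −4.45. The mitochondrially encoded share of counts was 0.0398 to 5.81% in TRAP (median 0.2%) and 0.965 to 10.1% in cord (median 2.09%). Assembly factors, which help to build the complexes but do not stay in them, rose in 27 of 42 tested in ChatBT (median 0.59), 32 in A315T (0.74, 2 lower) and 31 in hTDP43WT (0.62, 2 lower), among them Cox14 (1.62 in ChatBT), Coa3 (1.56) and Sdhaf2 (0.98). All 4 genes of the list of carriers and close partners rose in every genotype, with Cycs, the cytochrome c that links complexes III and IV, up by 1.02 in ChatBT, the acyl carrier Ndufab1 of complex I by 0.71 and the ATP synthase inhibitor Atpif1 by 2.00.

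In neighbouring pathways the median changes were smaller, without a test of the difference, and the shares that passed can be read against those of all genes given above (23.6% higher and 34.1% lower in ChatBT). Of 13 citrate cycle genes, 4 were higher and 2 lower in ChatBT (median 0.15), 6 and 2 in A315T (0.25) and 6 and 1 in hTDP43WT (0.28). The subunits of succinyl-CoA ligase divided, with Sucla2 up by 0.59 and Suclg2 down (log2 change −1.09) in ChatBT. Of 16 glycolysis genes 5 were higher and 5 lower in ChatBT (median 0.19), 8 and 5 in A315T (0.30) and 5 and 5 in hTDP43WT (0.13). Aldoc, the aldolase of astrocytes, changed by −1.23, Gapdh by −2.18 and Ldha by 0.74 in ChatBT. Of 12 regulators of mitochondrial genes, 3 were higher and 5 lower in ChatBT (median −0.36), 3 and 4 in A315T (−0.16) and 2 and 1 in hTDP43WT (−0.06). Among regulators whose letters were searched above, Nrf1 (−0.80) and the ETS factor Gabpa (−0.78) were lower in ChatBT. With 1 regulator lower in hTDP43WT, they did not both pass there. Values for YY1 and ERR are not given.

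At 14 weeks, when the study describes the A315T mice as symptomatic, TRAP members were compared between genotypes. Against ChatBT, 6 of 85 members were higher in A315T and 2 lower (7.92% and 5.98% of all genes), shares no larger than those of all genes, with a median change of 0.26 over members and 0.09 over all genes. Atp5s, an assembly-related factor also known as Dmac2l, had 32.35, 63.28, 57.61 and 49.77 CPM in the A315T libraries and 21.48, 22.6, 36.66 and 37.45 in ChatBT. The groups overlapped, since the lowest A315T library lay below the 2 highest ChatBT libraries, and the log2 change was 0.77 ± 0.198 (edgeR, adjusted p = 0.00776). Cox5a, a matrix-side subunit of complex IV, had 999.8, 456.7, 528 and 488.3 CPM against 297.9, 287.3, 375.8 and 411.3, without overlap, a change of 0.85 ± 0.220 (adjusted p = 0.00836). Replicate 1 of A315T, at 999.8 CPM, stood well above the others, and without it the change was 0.52 (edgeR, adjusted p = 0.104). Ndufs3, an iron-sulfur arm subunit of complex I, had 112.2, 74.71, 89.32 and 98.38 CPM against 53.54, 52.19, 52.57 and 74.69, a change of 0.69 ± 0.205 (adjusted p = 0.0201) between groups that all but touched. Ndufb3 (0.63), Atp5j (0.66) and Atp5g3 (0.65) were the others that were higher. Without ChatBT replicate 1, Atp5s changed by 0.64 (adjusted p = 0.0517) and Ndufs3 by 0.65 (adjusted p = 0.0644), and without A315T replicate 1 Ndufs3 changed by 0.59 (adjusted p = 0.066). Without the 9 libraries, which leaves 1 ChatBT library, Atp5s changed by 0.47, Cox5a by 0.72 and Ndufs3 by 0.84.

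The 2 lower members were low-count isoforms. Cox6b2 had 0.3208, 0.3252, 1.13 and 0.313 CPM in A315T and 1.021, 6.164, 0.05337 and 3.366 in ChatBT, so the groups overlapped (−2.16 ± 0.676, adjusted p = 0.0261). Without the 9 libraries, which leaves 1 ChatBT library at 14 weeks, assumed to vary like the other groups, the change turned to 3.06. Cox8b had 1.283, 0, 0.6082 and 0 CPM against 11.31, 0.4109, 1.868 and 1.052, a change of −3.02 ± 1.06 (adjusted p = 0.0474) in which 1 ChatBT library, at 11.31 CPM, stood far above the rest. Skeletal muscle markers ran along with it, at a mean log2 CPM of 6.68 in that ChatBT library, 0.52 to 2.73 in the others and −2.18 to 0.78 in A315T, with 6 of 7 lower in A315T (median −4.77). Their part in the Cox8b change was not tested.

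Against hTDP43WT, no member was higher in A315T and 2 were lower (0.929% and 6.31% of all genes), with medians of −0.02 over members and −0.09 over all genes. Both were muscle isoforms. Cox8b was at 2.16, 1.486, 45.21, 1.782 and 0.6768 CPM in hTDP43WT (−4.33 ± 1.08, adjusted p = 0.0102), and Cox6a2 at 0.6125, 0.04646, 0 and 0 CPM in A315T and at 3.312, 1.308, 52.98, 2.562 and 0.159 in hTDP43WT (−5.79 ± 1.80, adjusted p = 0.0391). In each, 1 hTDP43WT library, replicate 3, was far above the rest, and without it no member passed. The muscle markers stood at 4.77 in that library, against 3.95, 1.29, 3.98 and −1.39 in the others.

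Against ChatBT, hTDP43WT itself had more members that passed than A315T did, 18 higher and 1 lower (16.1% and 5.45% of all genes), a share of the 85 members not far from that of all genes in the upward direction. The median change was 0.38 over members and 0.21 over all genes. Of the 18, 8 were of complex V, 5 of complex I, 3 of complex III and 1 each of complexes II and IV. Atp5s had 58.51, 52.24, 62.21, 57.42 and 61.05 CPM in hTDP43WT, all above the 4 ChatBT libraries (0.97 ± 0.191, adjusted p = 0.000492). Atp5c1, the gamma subunit that forms the rotating stalk, had 552.5, 484.2, 1367, 634.5 and 669 CPM against 339.4, 504.6, 352.3 and 425 in ChatBT, with 1 pair out of order (0.87 ± 0.185, adjusted p = 0.00106). Atp5j, a subunit of the stator stalk, had 946.7, 750, 1834, 897.4 and 925.3 CPM against 445.6, 560.1, 456.5 and 692.4, without overlap (0.99 ± 0.213, adjusted p = 0.00118). Sdhd rose by 0.58 ± 0.137 (adjusted p = 0.00267), from 204.4 to 263.8 CPM in ChatBT to 253.6 to 517 in hTDP43WT. Replicate 3 was the highest hTDP43WT library for Atp5c1, Atp5j and Sdhd, and without it 7 members passed. Without the 9 libraries, which leaves 1 ChatBT library, Atp5c1 changed by 1.28, Atp5j by 1.43, Sdhd by 0.88 and Atp5s by 0.70. The member lower in hTDP43WT was the pseudogene Cox6c2 (−2.34, adjusted p = 0.0318), which was read at 8.63 CPM in 1 ChatBT library and at no more than 0.7904 in the other libraries of both groups.

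These 14-week calls rested on a spread that TRAP and cord libraries shared in the fit. With TRAP libraries fitted alone, or with limma-voom and sample weights, none of the members passed in any of the 3 comparisons. The changes themselves moved less: with TRAP alone Atp5s changed by 0.86 and Atp5j by 0.88 in hTDP43WT over ChatBT, and Atp5s by 0.71 and Cox5a by 0.76 in A315T over ChatBT. With glial and endothelial marker level as a covariate in TRAP alone, these were 0.90, 0.92, 0.60 and 0.55, and none passed, as without the covariate. Against ChatBT, leaving out single libraries moved the count for A315T between 2 (without ChatBT replicate 1) and 16 (without ChatBT replicate 4). Glial markers also moved with genotype: the oligodendrocyte markers had a mean log2 CPM of 6.76 to 6.88 in A315T TRAP libraries of 14 weeks, 7.29 to 9.56 in ChatBT and 6.86 to 9.31 in hTDP43WT. Astrocyte markers stood at 4.71 to 5.79, 5.06 to 7.74 and 5.22 to 7.61. Apart from the covariate, their part in the changes was not tested. The mitochondrially encoded subunits were lower in A315T than in ChatBT in 7 of 8 tested (median −3.95), against 5.98% of all genes. Their list was not fitted again with TRAP alone or without the marked libraries. Of all counts, 5.811% were mitochondrially encoded in ChatBT replicate 1, 0.4648 to 0.802% in the other ChatBT libraries and 0.09767 to 0.1507% in A315T.

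**Figure D5:**
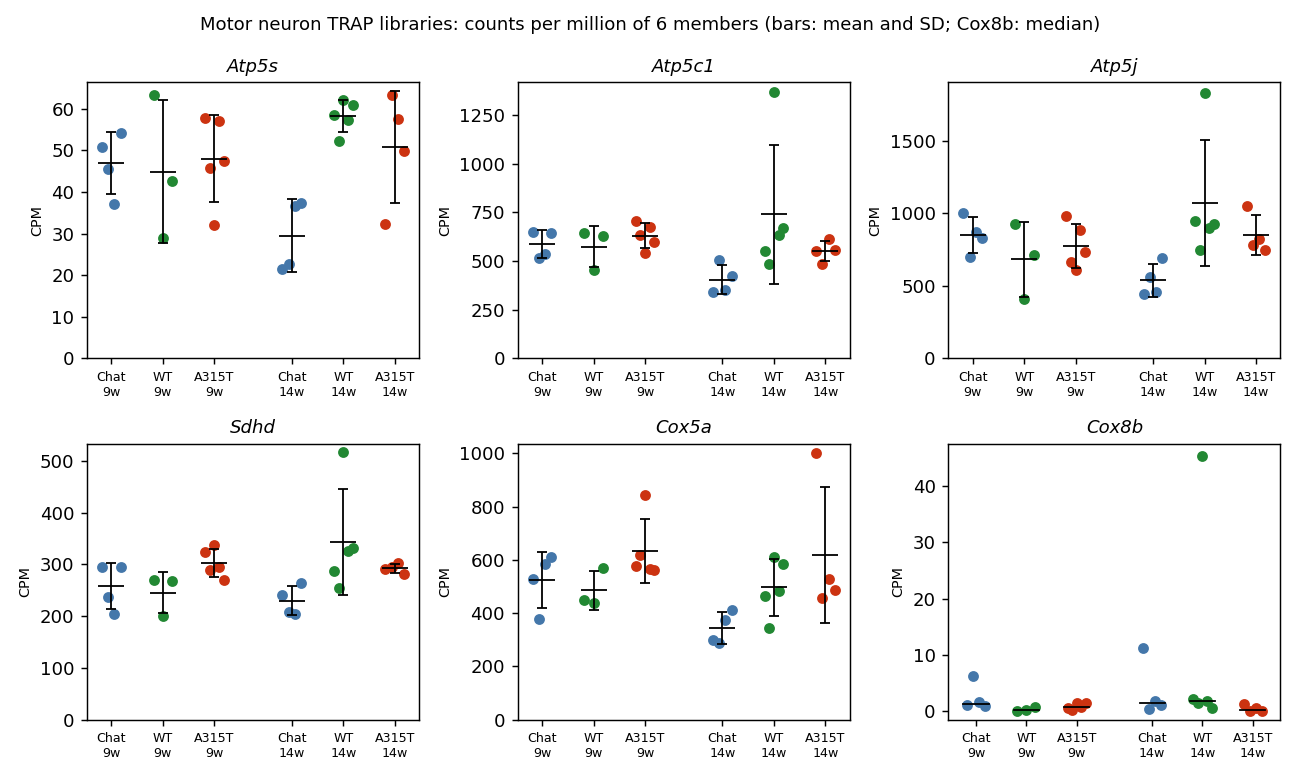
TRAP CPM of named members in each library by genotype and age, with bars for the mean and SD of each group, or the median for Cox8b. Atp5s lies at 21.48 to 37.45 CPM in ChatBT at 14 weeks and at 52.24 to 62.21 in hTDP43WT, and Cox8b reaches 45.21 in a single hTDP43WT library.

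At 9 weeks no member passed in TRAP by edgeR between A315T and ChatBT (0.552% of all genes), A315T and hTDP43WT (2.27%) or hTDP43WT and ChatBT (0.223%), and 2, 4 and 2 members had an unadjusted p below 0.05. For Atp5s, the 9-week libraries had 57.7, 45.87, 31.99, 57.18 and 47.43 CPM in A315T, 50.94, 45.46, 37.12 and 54.08 in ChatBT and 63.25, 28.97 and 42.55 in hTDP43WT, and the genotypes overlapped. Without the 3 control libraries with Lamr1-ps1, 4 members were higher in A315T than in hTDP43WT and 2 lower in hTDP43WT than in ChatBT. Without all 9, 1 member was higher and 1 lower in A315T than in ChatBT. In the comparisons with hTDP43WT the counts also left 0, but replicate 2 was then its only library, and they are not given. The change between 9 and 14 weeks of A315T against ChatBT passed for no member (1.72% of all genes, 11 members at an unadjusted p below 0.05), nor did that against hTDP43WT (0.143%, 5 members). DESeq2 called none in the former and 1 in the latter. Without libraries under 5 M counts 5 passed in the former. Without the 9 libraries the counts of both left 0, but each then rested on a group of 1 library. These counts are listed only among the alternative fits at the end and are not read as calls.

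In whole cord no member passed by edgeR at 14 weeks between A315T and ChatBT, A315T and hTDP43WT or hTDP43WT and ChatBT, where 0.0212%, 0.0265% and 0.00531% of all genes did, and 2, 0 and 0 members had an unadjusted p below 0.05. At 9 weeks none passed either (0.0425%, 0.0212% and 0% of all genes, with 1, 16 and 0 members at an unadjusted p below 0.05). With limma-voom and sample weights, 24 members were lower in A315T than in ChatBT and 38 lower than in hTDP43WT at 14 weeks, and 2 and 25 were lower at 9 weeks, with 1 higher than in hTDP43WT. The share of all genes that passed in that fit was not counted, so these counts cannot be read as particular to the members.

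The number of members that changed between 9 and 14 weeks in control TRAP libraries depended on which libraries were used. In ChatBT TRAP, Atp5s fell by 0.67 ± 0.199 on the log2 scale (adjusted p = 0.0339), the only member to pass (6.28% of all genes did). In hTDP43WT TRAP 3 rose (10.7% of all genes passed). Sdha went from 440.7, 420.9 and 479.5 CPM at 9 weeks to 514.9, 514.6, 1374, 494.5 and 483.1 at 14 weeks, without overlap (0.60, adjusted p = 0.0307), Sdhd from 269.3, 199.4 and 267.4 to 287.3, 253.6, 517, 324.9 and 331.4 with overlap (0.49, adjusted p = 0.0314), and Cox8b from 0, 0.2142 and 0.8481 CPM to the values given above (4.34 ± 1.41, adjusted p = 0.0391). Replicate 3 was the highest 14-week library for all 3 genes, and without it none passed. Without the hTDP43WT library of 0.472 M counts 14 passed, and without all libraries under 5 M 15. Without the 9 libraries replicate 2 was the only hTDP43WT TRAP library of 9 weeks, and Sdha changed by 0.92, Sdhd by 0.92 and Cox8b by 6.22. The count in ChatBT became 0 without its replicate 1 at 14 weeks and 9 without replicate 4. It became 10, all lower, without libraries under 5 M. Without the 9, which leaves 1 ChatBT library at 14 weeks, Atp5s changed by −0.41. In A315T TRAP no member changed with age (0.0106% of all genes, 1 member at an unadjusted p below 0.05), and in cord none did in ChatBT, A315T or hTDP43WT (0%, 0% and 0% of all genes, with 0, 0 and 5 members at an unadjusted p below 0.05). With TRAP libraries alone none of the age changes passed.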

How the data were processed

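The deposited values are raw read counts for each Ensembl gene, which the authors made with STAR and featureCounts on mm10 (GRCm38), and 1 library kit (NEBNext Ultra) served both fractions. Normalized counts deposited beside them were not used. Groups came from sample titles. Libraries were filtered and scaled (filterByExpr, TMM) and fitted with edgeR 4.0.16 (quasi-likelihood, robust) in R 4.3.3 as 1 model of 12 groups over 18838 genes, with Benjamini-Hochberg adjustment over all of them. Values of single genes are TMM-scaled CPM. Titles number replicates but name no animals, so p-values measure the spread between libraries. The replicate numbers did not pair libraries over all groups. The members, gene lists and criteria for libraries were chosen with earlier results of these data known. Named members were the 3 highest and 3 lowest of each complex by TRAP over cord, isoform families, the most abundant per kilobase and up to 4 smallest p in each genotype or age comparison, and other names were chosen after their values were seen. Coding lengths (longest coding transcript of each gene) and coordinates came from GENCODE on GRCm38. The scripts were tested on simulated data. Alternatives used DESeq2 1.42.0 and limma 3.58.1, other scaling, filters and fits, and omission of libraries. The values of 1 member are not reported here singly.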

Additional observations from a re-analysis of the deposited data

Results flagged for a closer look

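In groups of 4 to 6 libraries, 127 sets of values were checked for a highest or lowest library far from the rest (Dixon's criterion), and 20 stood out. For independent, normally spread values the criterion gives about 1 in 20. These sets overlapped, some held values near 0, and the single genes were chosen for small p in these same libraries. The number that stood out therefore cannot be set against that rate. In the A315T TRAP group of 14 weeks replicate 1 was highest for the mean log2 CPM of complex III (8.968, others 8.227 to 8.341), Cox5a (999.8 CPM, others 456.7 to 528), Cox6a2 (0.6125 CPM, others at most 0.04646) and Sdha (599.4 CPM, others 432.4 to 458.1), and replicate 3 for Cox6b2 (1.13 CPM, others 0.313 to 0.3252). In the A315T TRAP group of 9 weeks replicate 3 was highest for Cox5a (844.9 CPM, others 562.2 to 616.6) and Cox6a2 (1.145 CPM, others 0.4517 to 0.6447).

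In the hTDP43WT TRAP group of 14 weeks replicate 3 was highest for Atp5c1 (1367 CPM, others 484.2 to 669), Atp5j (1834 CPM, others 750 to 946.7), Sdha (1374 CPM, others 483.1 to 514.9), Cox6a2 (52.98 CPM, others 0.159 to 3.312) and Cox8b (45.21 CPM, others 0.6768 to 2.16). This library also had the lowest scaling factor of TRAP libraries named here (TMM 0.652) and the highest mean log2 CPM over members (8.194).

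In the ChatBT TRAP group of 14 weeks replicate 1 was highest for Cox6a2 (24.67 CPM, others at most 0.4109) and Cox8b (11.31 CPM, others 0.4109 to 1.868), replicate 4 for Ndufs3 (74.69 CPM, others 52.19 to 53.54), and replicate 3 lowest for the mean log2 CPM of complex IV (4.656, others 5.504 to 5.536). In the ChatBT TRAP group of 9 weeks replicate 2 was highest for Cox6a2 (8.688 CPM, others at most 0.9909) and Cox8b (6.275 CPM, others 0.8912 to 1.65). In cord, A315T replicate 4 at 9 weeks was lowest for complex II (7.874, others 7.947 to 7.974) and hTDP43WT replicate 5 at 14 weeks for complex IV (4.422, others 5.015 to 5.081).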

How the results depend on the processing

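The TRAP over cord result held its size in every alternative fit: over 33, 27 and 32 alternatives the members higher numbered 66 to 72 in ChatBT, 67 to 73 in A315T and 62 to 72 in hTDP43WT, those lower 2 to 5, 2 to 6 and 2 to 5, and the medians ran from 1.10 to 1.26, 1.29 to 1.49 and 1.04 to 1.42. A minimum of 2-fold, which is not among these, left 52, 58 and 53 higher and 3 lower in each. Leaving out each library in turn gave 72 to 76 calls in ChatBT, 75 to 77 in A315T and 69 to 75 in hTDP43WT. The genotype and age counts were less firm. Shares of all genes were counted in the main fit alone, so counts under the alternatives have none beside them. Without all 9 libraries, ChatBT at 14 weeks and hTDP43WT at 9 weeks each kept 1 TRAP library. The change with age in hTDP43WT, and that of A315T against either control, then rest on a group without replicates. Their counts without all 9 are listed below as a record of that fit, are not read as calls, and cannot show whether more members changed. Where a count moved, the cause was not tested, apart from what each alternative removes by construction. TRAP libraries ran from 0.472 M counts upwards, which limits the low isoforms most.

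In 14-week TRAP, the 8 calls of A315T over ChatBT became 2 with a minimum of 2-fold, 0 with limma-voom, 5 with median-ratio factors, 3 with no filter, 0 with TRAP alone, 0 with the marker covariate (also TRAP alone, so that the covariate's own part cannot be told apart), 16 without the Ddx3y library, 16 without libraries under 5 M counts, 3 without those over 5% mitochondrially encoded, and 2 to 16 without single libraries. The 19 calls of hTDP43WT over ChatBT became in the same order 2, 0, 10, 11, 0 and 0 up to the covariate, and 7 to 27 without single libraries. The 2 of A315T over hTDP43WT became 0 with limma-voom, 1 with no filter, 0 with TRAP alone, 0 with the covariate, 7 without all 9 libraries and 0 to 3 without single libraries.

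For age, the 1 call in ChatBT TRAP became 0 with the 2-fold minimum, 0 with DESeq2, 0 with limma-voom, 0 with median-ratio factors, 0 with no filter, 0 with TRAP alone, 9 without Ddx3y, 10 without libraries under 5 M, 0 without those over 5% mitochondrially encoded, and 0 to 9 without single libraries. The 3 in hTDP43WT TRAP became 1 with the 2-fold minimum, 0 with limma-voom, 1 with median-ratio factors, 0 with no filter, 0 with TRAP alone, 6 without the Lamr1-ps1 controls, 15 without libraries under 5 M, 5 without those over 5% mitochondrially encoded, 29 without all 9, and 0 to 14 without single libraries.

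Counts of 0 moved too. The change with age of A315T against hTDP43WT gave 1 with DESeq2, 2 without the Lamr1-ps1 controls, 18 without all 9 and 0 to 2 without single libraries, and that against ChatBT 3 without Ddx3y, 5 without libraries under 5 M, 5 without all 9 and 0 to 3 without single libraries. Differences in TRAP over cord gave 1 (A315T against hTDP43WT) and 1 (hTDP43WT against ChatBT) without the Lamr1-ps1 controls, and 0 to 1 (hTDP43WT against ChatBT) without single libraries. In 9-week TRAP, A315T against hTDP43WT gave 4 without the Lamr1-ps1 controls and 0 to 4 without single libraries, hTDP43WT against ChatBT 2 and 0 to 2, and A315T against ChatBT 2 without all 9. In cord, limma-voom gave 24 (A315T over ChatBT), 38 (A315T over hTDP43WT) and 1 (hTDP43WT over ChatBT) at 14 weeks, and 2 (A315T over ChatBT) and 26 (A315T over hTDP43WT) at 9 weeks. Other counts of 0 stayed 0 without single libraries.

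Of 3951 values of single members under alternatives, 3735 kept direction and side of the threshold, 131 lost the call, 25 gained one and 60 changed sign. Of those that had passed, 2 changed sign, both without all 9 libraries: Cox6b2 in A315T over ChatBT at 14 weeks (−2.16 to 3.06) and Cox6c2 in ChatBT TRAP over cord (3.18 to −1.54). The others were TRAP over cord changes near 0 or of low genes. In A315T, Ndufs1 gave −0.08 with DESeq2, −0.02 with limma-voom, −0.08 with median-ratio factors, −0.02 with no filter, −0.04 at 9 weeks alone and −0.01 with the block within genotype and age. Ndufv1 gave −0.08, −0.01, −0.08 and −0.01 with the first 4 of these and −0.09 at 14 weeks alone. Uqcrc1 gave 0.13 at 9 weeks alone and Atp5g2 −0.12 at 14 weeks alone. In hTDP43WT, Sdha gave −0.01 with DESeq2, −0.12 with limma-voom, −0.01 with median-ratio factors and −0.19 at 9 weeks alone, Uqcrc1 0.00 with DESeq2 and 0.00 with median-ratio factors, Uqcrc2 0.05, Cox7b2 0.92 and Cox8b 1.61 at 14 weeks alone, and Cox6a2 −2.14 with limma-voom, −0.33 at 9 weeks alone and −1.26 with the block within genotype and age. In ChatBT, Cox7b2 gave 0.60 with limma-voom, 1.63 at 9 weeks alone and 0.33 without libraries over 5% mitochondrially encoded, Ndufs1 −0.02 without the Lamr1-ps1 control, Uqcrc1 0.00 without libraries under 5 M and 0.03 without all 9, and Cox8b 0.14 without libraries under 5 M. Without single libraries, the ranges were −0.10 to 0.11 (Ndufs1), −0.03 to 0.11 (Ndufv1) and −0.10 to 0.04 (Uqcrc1) in A315T, −0.16 to 0.10 (Sdha), −0.09 to 0.22 (Uqcrc1), −1.71 to 0.71 (Cox6a2) and −3.19 to 0.16 (Cox7b2) in hTDP43WT, and −0.01 to 0.14 (Ndufs1), −0.12 to 0.04 (Uqcrc1), −4.23 to 0.70 (Cox6a2), −2.52 to 0.34 (Cox7b2) and −1.06 to 0.43 (Cox8b) in ChatBT.

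The study kept part of each lysate as input, but the labels do not say which libraries share one. Same-numbered libraries did not deviate together throughout: 5 of 25 pairs of TRAP and cord libraries of 1 genotype, age and number correlated above 0.1 (−0.284 to 0.181), all 5 among the 9 pairs of A315T, of which 5 correlated best with their own number, and 9 of 51 other same-numbered pairs (−0.276 to 0.399). With the replicate block, TRAP over cord had 71 higher and 3 lower in ChatBT, 73 and 3 in A315T and 71 and 3 in hTDP43WT. Under this block the change of Cox8b with age in hTDP43WT had an adjusted p of 0.0583 (edgeR). With the replicate block within genotype and age, the counts were 67 and 3, 73 and 4, and 69 and 3.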
